A study of Homo sapiens with 6 samples.

Results

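The enzymes of de novo purine synthesis build the purine ring on a phosphoribosyl scaffold and turn the product, inosine monophosphate (IMP), into AMP and GMP. Their levels were read in poly(A) RNA-seq of MV4-11, an established acute myeloid leukaemia line with the FLT3 internal tandem duplication. The members were 10 genes chosen by symbol: PPAT, GART, PFAS, PAICS, ADSL and ATIC, which carry the route to IMP, IMPDH1, IMPDH2 and GMPS, which lead from IMP to GMP, and ADSS, which with ADSL leads from IMP to AMP. All 10 had 1 row each among the 23698 gene rows of the deposited tables, and all 10 passed the filter on low counts, as did 13668 genes in all.

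Both groups were stable lentiviral lines of MV4-11. The knockdown group carried a short hairpin RNA against PRMT5, an enzyme that symmetrically dimethylates arginine, and the control group carried a scrambled hairpin, with 3 libraries each. The labels name neither the hairpin sequence nor the number of independent transductions, and nothing in them says that the replicates were separate cultures, so a p-value here reflects no more than the spread of these samples, which can be technical in part.

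Purine synthesis is known as a demand of dividing cells. PPAT catalyses the committed step and is inhibited by the purine nucleotides at the end of the route, while IMPDH is the limiting step towards GMP. In many cell types the transcription factor MYC, which binds the E-box CACGTG as a dimer with MAX, is known to bind and activate genes of this route, and so the enzymes were also set against MYC in the 6 libraries.

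The libraries held 16408484 to 19077106 estimated counts each. Levels are given as CPM, counts scaled to a common depth with TMM factors. For PRMT5, the targeted gene, knockdown 1 to 3 held 103, 71.6 and 52.9 CPM. Control 1 held 133 and control 3 held 158 CPM, whereas the second control held 53.1 CPM. That library, titled scrambled control 2, thus lay with the knockdown libraries in PRMT5 and in this gene went against its label. It is called the library labelled control 2 below. Across all tested genes that library correlated with the other 5 at 0.876 to 0.923, against 0.952 to 0.995 among the other 5. Its r was 0.923 with control 1, 0.876 with control 3 and 0.884, 0.909 and 0.880 with knockdown 1 to 3. Across genes it thus stood apart from both groups, and its nearest and its farthest library were both controls. The log2 differences of the enzymes, of MYC and of the pathway lists are therefore also given without it. All 11 markers listed for the myeloid leukaemia line passed the filter on low counts, with a summed level of 1504 to 2586 CPM in the knockdown and 1818 to 2364 CPM in the control libraries. Markers of T cells summed to at most 1.09 CPM in any library, with CD3E at 0 in all 6. Those of B cells, with 1 of 4 above the filter, reached 15.9 CPM, those of fibroblasts (1 of 5) 6.67 CPM and those of epithelial cells (2 of 5) 52.1 CPM. In bulk RNA, fewer cells of a kind and less RNA per cell cannot be told apart.

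The sequence around the start sites is shown first, because 3 of the enzyme genes carry the MYC E-box there and a pair of them share a promoter. RefSeq promoter windows of the build GRCh38.p14, from 250 bases before to 50 bases after a start site, were at hand for 8 of the 10 genes, those of ADSS under its current symbol ADSS2. ADSL and IMPDH2 were not matched. The motif CACGTG, which reads the same on both strands, was found in a window of 3 of the 8 genes, PPAT, PAICS and ATIC. Of all 27305 genes in the promoter table, 8.77% had a window with it. Each stretch below has 30 bases, written in the direction of its gene with the E-box in capitals.
PPAT, chr4:56435780-56435809, minus strand: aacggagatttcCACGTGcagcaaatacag
PAICS, chr4:56435772-56435801, plus strand: ctggaaagctgtatttgctgCACGTGgaaa
ATIC first site, chr2:215312001-215312030, plus strand: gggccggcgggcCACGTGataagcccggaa
ATIC second site, chr2:215312076-215312105, plus strand: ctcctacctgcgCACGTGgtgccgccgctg
The PPAT and PAICS stretches overlap and hold the same E-box read from opposite strands. Its first base lies 182 bases before the PPAT start, and at base 41 of PAICS counted from the start used here, 1 of 3 in the table. That start was used because its window holds the motif, which the windows of the other PAICS starts do not. In ATIC the motif begins 46 bases before the start and again at base 30 after it. A match describes these letters only, and the series holds no measure of MYC binding.

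PPAT and PAICS lie head to head on chromosome 4, with start sites 137 bases apart, so that the first enzyme of the route and the enzyme of a pair of its middle steps are read from 1 shared stretch in opposite directions. The 136 bases between the starts, chr4:56435616-56435751 on the plus strand in GRCh38.p14, are shown because they are common to both genes. Capitals mark GGGCGG, the GC box bound by Sp-family factors, which occurs 3 times and is found on either strand in 44.95% of all 35116 promoter windows.
PPAT-PAICS: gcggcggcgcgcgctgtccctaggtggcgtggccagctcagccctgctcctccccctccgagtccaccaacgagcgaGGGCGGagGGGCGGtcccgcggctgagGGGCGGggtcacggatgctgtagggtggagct

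Levels between enzymes were compared only per length, as CPM per kilobase of the principal GENCODE v29 transcript. IMPDH2 was the most abundant, with a median of 225 CPM per kilobase over the 6 libraries (217 to 345). ATIC, GART, PAICS and ADSS followed with medians of 73.0, 72.2, 70.0 and 62.1 CPM per kilobase, and neighbours among these 4 overlapped in their ranges. IMPDH1, ADSL, PFAS and PPAT had 36.3, 30.0, 27.5 and 19.4, again with overlapping neighbours, and GMPS, whose annotated transcript of 8751 bases is the longest, had 11.7 CPM per kilobase. Between neighbours in this order, the ranges were apart only below IMPDH2 and between PPAT and GMPS. PFAS in the library labelled control 2 was an exception further apart in the order, since it lay there below the whole range of GMPS (10.6 to 15.5 CPM per kilobase). The order depends on the transcript chosen, since the annotation used for the counts is not given in the sources used here.

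PRMT5 knockdown was compared with the scrambled control to ask whether the enzymes differ between the groups. None of the 10 passed the test (edgeR quasi-likelihood, adjusted p 0.926 to 0.986), and no gene of the whole table did, which is 0% of 13668. DESeq2 and limma-voom also called 0 genes. The smallest unadjusted p of a member was 0.218, and none was under 0.05, where 242 genes of the table, or 1.77%, were. The log2 difference, taken as knockdown minus control, was positive for 8 of the 10 and negative for 2, with a median of 0.21. Over all tested genes, 49.9% had a positive difference and the median was −0.00069. All 10 intervals included 0. PRMT5, the target of the hairpin, had a log2 difference of −0.60 (SE 0.43, interval −1.60 to 0.41, edgeR adjusted p = 0.926). A lower PRMT5 level in the knockdown group was therefore not established by this comparison. The values of the enzymes compare the groups as labelled, and are no reading of a verified loss of PRMT5. The plot of the levels shows the 6 libraries for each enzyme and for MYC.

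**Figure D1:**
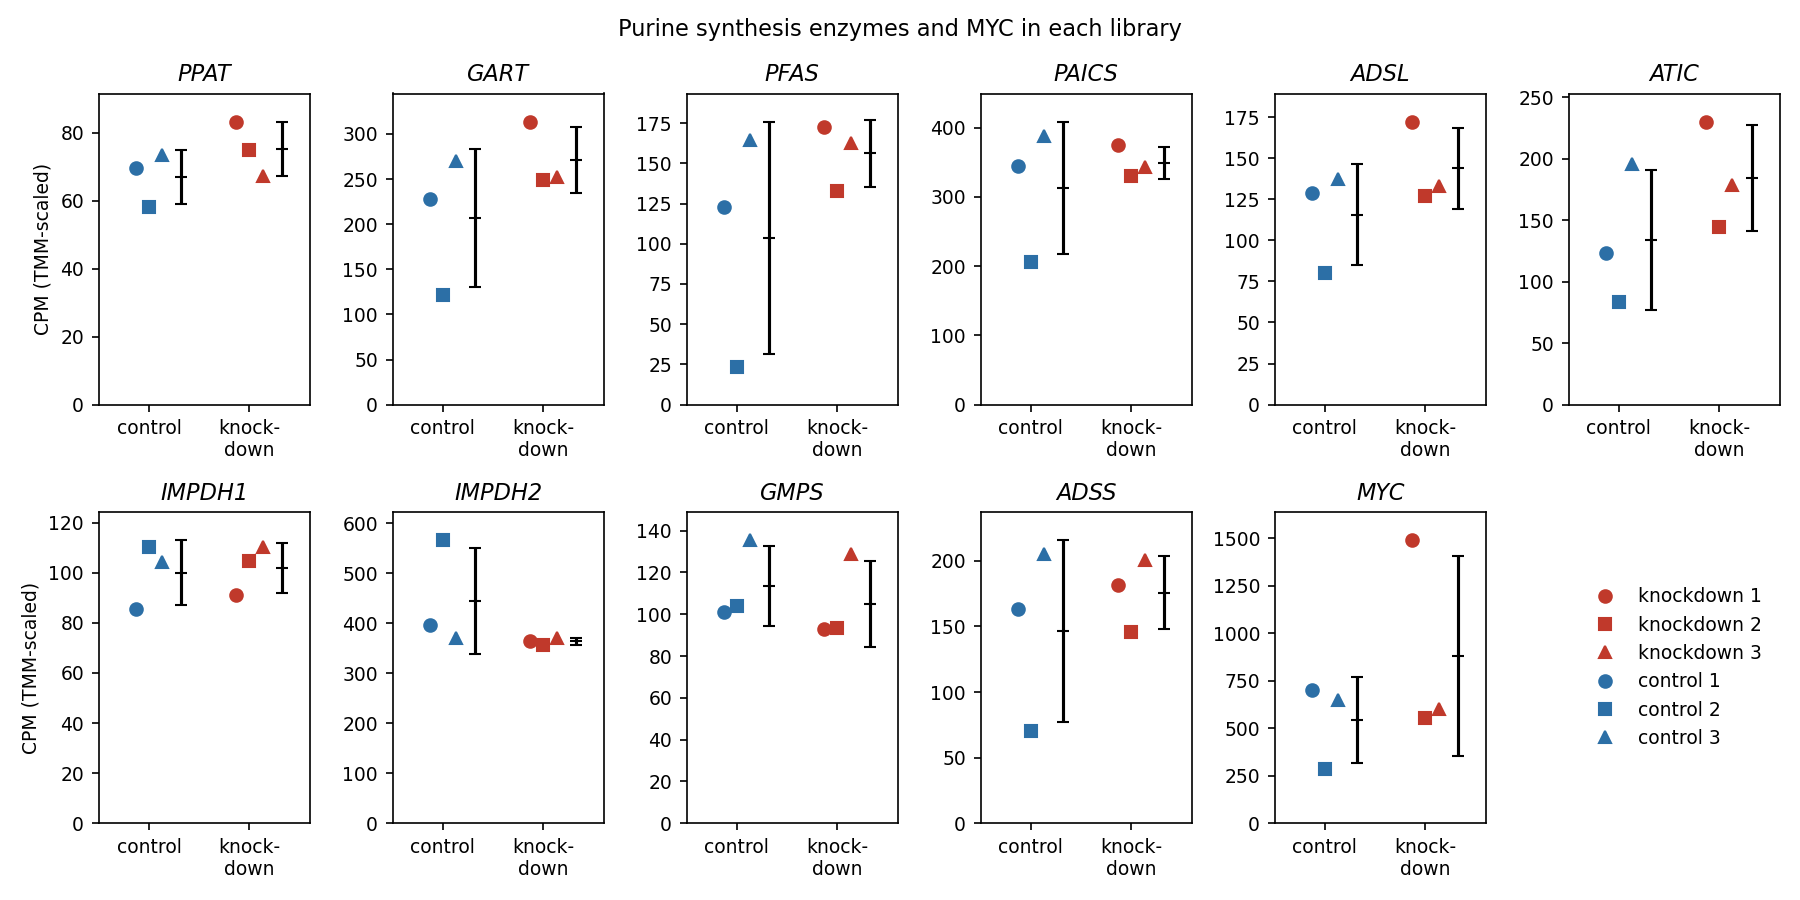
Level of each purine synthesis enzyme and of MYC, in TMM-scaled CPM on a linear axis from 0, with a point per library (circle, square and triangle for replicates 1, 2 and 3) and the mean with SD (n = 3) beside each group. The square of the control group, the library labelled control 2, is the lowest of the 6 in PPAT, GART, PFAS, PAICS, ADSL, ATIC, ADSS and MYC and the highest in IMPDH2.

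The route to IMP opens with PPAT, the amidotransferase that commits phosphoribosyl pyrophosphate to purines. For PPAT, knockdown 1 to 3 held 83.2, 74.8 and 67.3 CPM, and the libraries labelled control held 69.5, 58.2 and 73.3 CPM in the same order. The groups overlapped, with knockdown 3 below controls 1 and 3. For PPAT the log2 difference was 0.16 (SE 0.20, 95% confidence interval −0.31 to 0.64), and 0.075 with the library labelled control 2 left out.

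GART is a single protein with 3 enzyme activities of the early and middle steps. Knockdown 1 to 3 held 313, 249 and 252 CPM of GART, and the controls held 228, 122 and 270 CPM. Control 3 lay above knockdown 2 and 3, and only the library labelled control 2 stood well below the rest. GART had a log2 difference of 0.39 (SE 0.31, interval −0.34 to 1.12), and 0.13 without that library.

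PFAS, which makes formylglycinamidine ribonucleotide with glutamine as nitrogen donor, had the largest difference of the 10. Its levels were 173, 133 and 163 CPM with the PRMT5 hairpin and 123, 23.7 and 164 CPM with the scrambled one. The value of 23.7 CPM was 6.31-fold below the mean of the other 5 libraries on the log2 scale, and 0.776% of all tested genes were as low or lower there by this measure. Its log2 difference of 0.59 (SE 0.59, interval −0.79 to 1.98) was 0.12 without the library labelled control 2.

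PAICS joins a carboxylase and a synthetase of the middle steps. Knockdown 1 to 3 held 374, 330 and 343 CPM and the controls 345, 206 and 389 CPM, so the highest and the lowest value were both controls. PAICS had a log2 difference of 0.16 (SE 0.27, interval −0.48 to 0.79), which turned to −0.070 without the library labelled control 2. PAICS and PPAT, which share the promoter shown above, differed in that library: against the mean of the other 5 in log2 CPM it had −0.33 for PPAT and −0.78 for PAICS.

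ADSL, adenylosuccinate lyase, acts once on the way to IMP and again on the way to AMP. Its levels were 172, 127 and 133 CPM in knockdown 1 to 3, beside 129, 80.4 and 137 CPM in the controls. Knockdown 1 was above the other libraries and the library labelled control 2 below them, while the other 4 lay between 127 and 137 CPM. For ADSL the difference of knockdown minus control on the log2 scale was 0.32 (SE 0.27, interval −0.30 to 0.94), and 0.12 without the library labelled control 2.

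ATIC, which carries out the last 2 reactions to IMP, had 230, 144 and 179 CPM in knockdown 1 to 3, beside 123, 83.5 and 195 CPM in the controls. Control 3 was above knockdown 2 and 3. ATIC had a log2 difference of 0.46 (SE 0.34, interval −0.34 to 1.26), and 0.21 without the library labelled control 2.

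In the GMP branch, IMPDH2 and GMPS had a negative log2 difference and IMPDH1 a positive one near 0, and a difference between branches was not tested. IMPDH2, the IMP dehydrogenase of dividing cells, had 365, 356 and 370 CPM in knockdown 1 to 3, beside 397, 566 and 371 CPM in the controls. It was the 1 enzyme of the 10 whose groups did not overlap, every knockdown library being below every control, and 6.24% of all tested genes had groups that did not overlap. The margin was small, 370 against 371 CPM at replicate 3. IMPDH2 had a log2 difference of −0.29 (SE 0.23, interval −0.83 to 0.25), and −0.075 without the library labelled control 2.

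IMPDH1, the related isoenzyme, had 91.0, 105 and 110 CPM in knockdown 1 to 3, with 85.6, 110 and 104 CPM in the controls, and the groups overlapped. Its log2 difference was 0.028 (SE 0.20, interval −0.44 to 0.50), and 0.11 without the library labelled control 2. The ratio of IMPDH2 to IMPDH1 per kilobase was 7.04, 5.97 and 5.87 in knockdown 1 to 3 and 8.13, 8.99 and 6.23 in the libraries labelled control 1 to 3. The ratio overlapped between the groups and was lower in the knockdown library at each of the 3 numbers.

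GMPS, the amidotransferase that makes GMP, had 92.9, 93.3 and 129 CPM in knockdown 1 to 3, with 101, 104 and 135 CPM in the controls. Both libraries numbered 3 were above the other 4. For GMPS the log2 difference was −0.11 (SE 0.23, interval −0.65 to 0.43), and −0.17 without the library labelled control 2. ADSS, the adenylosuccinate synthase that starts the AMP branch, had 182, 145 and 201 CPM in knockdown 1 to 3, with 164, 70.0 and 205 CPM in the controls. A log2 difference of 0.26 (SE 0.38, interval −0.63 to 1.16) for ADSS turned to −0.067 without the library labelled control 2.

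**Figure D2:**
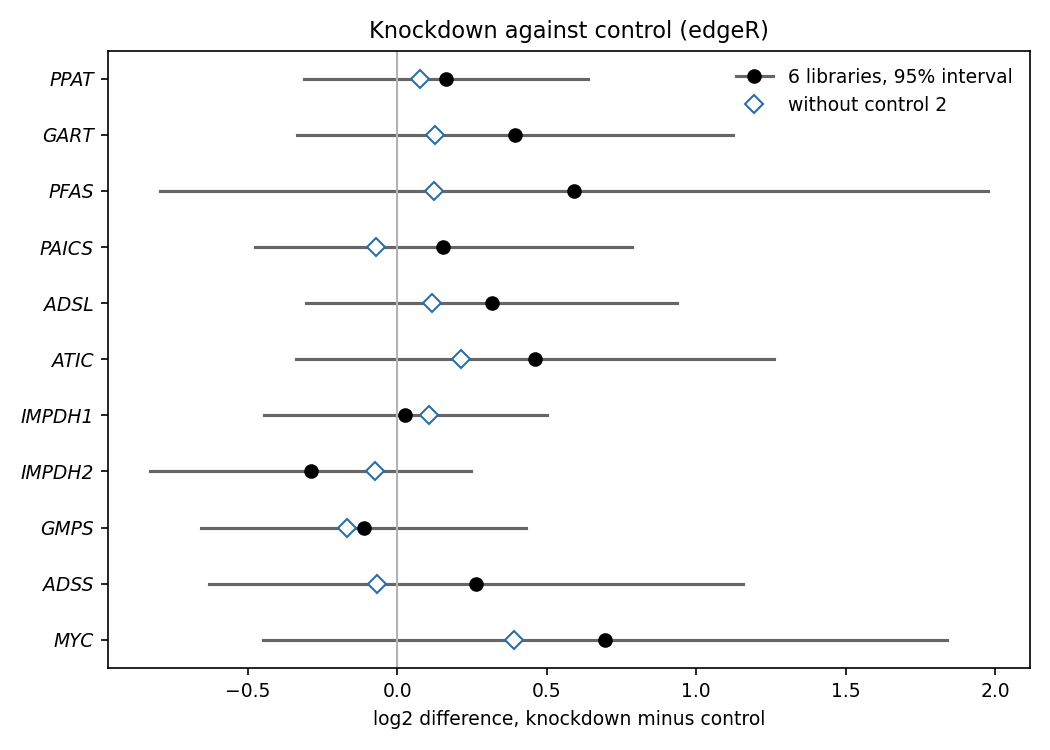
Log2 difference of knockdown minus control for the 10 enzymes and MYC, with black points and lines for the edgeR estimate and 95% confidence interval over 6 libraries and open diamonds for the estimate without the library labelled control 2. All intervals include 0, and the diamonds of the 10 enzymes lie between −0.17 for GMPS and 0.21 for ATIC.

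Deviations from the group means correlated at 0.394 and 0.566 in the libraries numbered 2 and 3. For number 1 the value was 0.127, below the 0.164 of knockdown 2 with control 1, so a pairing there was not shown. Differences within a number are given as a description. In pair 1, 8 of the 10 enzymes were higher in the knockdown library, with a median of 0.20 and a range of −0.12 (IMPDH2) to 0.90 (ATIC). In pair 2, 7 were higher, with a median of 0.67 and a range of −0.67 (IMPDH2) to 2.48 (PFAS). In pair 3, 1 was higher, IMPDH1 at 0.082, the median was −0.059 and the lowest value was −0.18 (PAICS). GMPS (−0.12, −0.16 and −0.072 in pairs 1 to 3) and IMPDH2 (−0.12, −0.67 and −0.0040) were lower in the knockdown library of all 3 pairs. The other 8 enzymes did not keep 1 direction over the pairs. Knockdown 3 and control 3 were the most alike pair of libraries in the whole table (r = 0.995 across genes), although PRMT5 differed between them by −1.58 on the log2 scale. PRMT5 differed by −0.36 in pair 1, and in pair 2 it was higher in the knockdown library, at 0.43. With the replicate number as a block, no enzyme was called either, and the log2 difference of PFAS was 0.95 in place of 0.59 (edgeR adjusted p = 0.709).

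Knockdown 1 and the library labelled control 2 lay at the ends of the MYC range and at the ends of the range of several enzymes. The library labelled control 2 was the lowest of the 6 for all 6 enzymes of the route to IMP and for ADSS, at −0.33 (PPAT) to −2.66 (PFAS) in log2 CPM against the mean of the other 5. It was the highest for IMPDH2, at 0.61, and between the others for IMPDH1 and GMPS. Over all tested genes this library was the lowest of the 6 for 36.7% and the highest for 34.4%, so an extreme place there was common. Knockdown 1 was the highest for PPAT, GART, PFAS, ADSL and ATIC, 5 of the 10, against 18.5% of all tested genes. GMPS was lowest in knockdown 1. Whether the state of these libraries accounts for the enzyme levels was not tested.

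**Figure D3:**
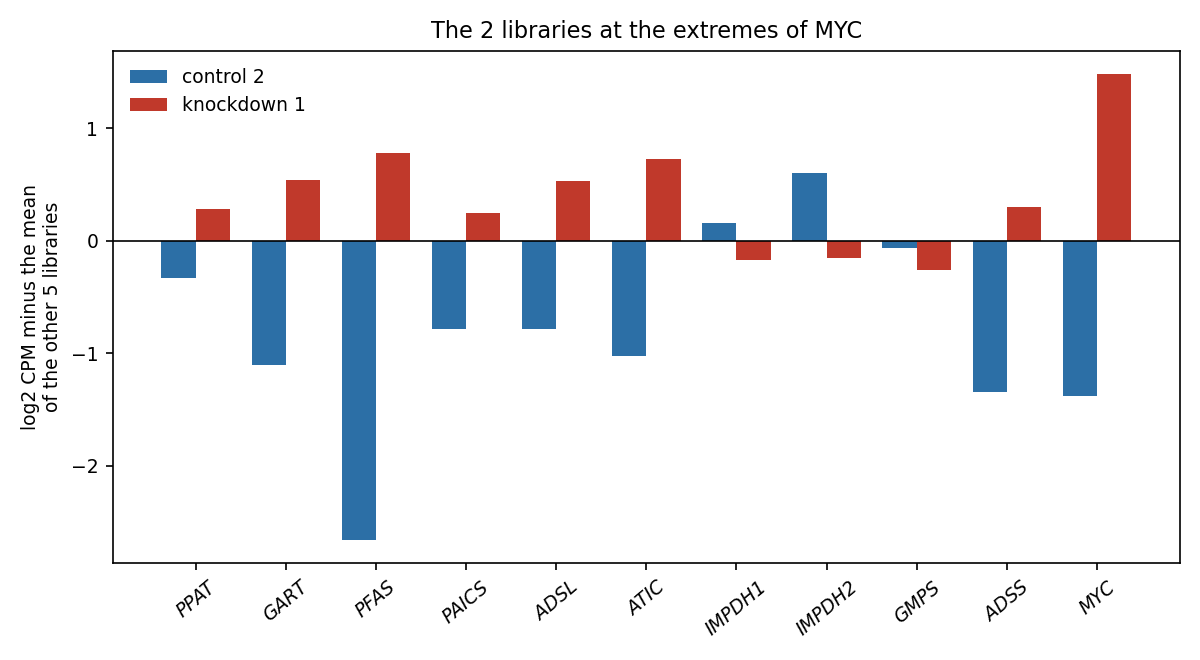
Bars show log2 CPM in the library labelled control 2 (blue) and in knockdown 1 (red), each minus the mean of the other 5 libraries, for the 10 enzymes and MYC. The blue bars reach −2.66 at PFAS and stand above 0 at IMPDH1 and IMPDH2, and the red bars are above 0 for the enzymes of the route to IMP and for ADSS.

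MYC, on chromosome 8, had 1490, 556 and 600.003 CPM in knockdown 1 to 3, with 702, 285 and 646 CPM in the controls in the same order. Knockdown 1 was 2.79-fold above and the library labelled control 2 was 2.60-fold below the mean of the other 5 on the log2 scale, and the other 4 libraries lay between 556 and 702 CPM. For MYC the log2 difference was 0.70 (SE 0.49, interval −0.45 to 1.84; edgeR adjusted p = 0.926). It was 0.39 without the library labelled control 2 alone, 0.085 without knockdown 1 alone and −0.22 without both.

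Across the 6 libraries, log2 CPM of each enzyme of the route to IMP had a positive r with that of MYC. Pearson's r was 0.95 for ADSL, 0.91 for PPAT, 0.87 for GART, 0.84 for ATIC, 0.80 for PAICS and 0.78 for PFAS, and 0.73 for ADSS. It was −0.66 for IMPDH1, −0.73 for IMPDH2 and −0.21 for GMPS. Spearman's rho had the same signs: 0.83 for ADSL and PAICS, 0.66 for GART, PFAS and ATIC, 0.60 for PPAT, 0.54 for ADSS, −0.77 for IMPDH1, −0.20 for IMPDH2 and −0.31 for GMPS.

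These relations did not pass an exact two-sided permutation test over all 720 orders of the libraries. The smallest p that this test allows is 0.00139, so an adjusted p under 0.05 would need many genes at or near that floor. Not passing therefore does not show that a relation is absent. The unadjusted p of r was 0.0444 for ADSL and 0.0472 for ATIC, and both were 0.372 after Benjamini-Hochberg adjustment over all 13667 genes set against MYC. For the other 8 it was 0.0514 to 0.636, and 0% of all genes passed after adjustment, while 10.9% had an unadjusted p under 0.05. The permutation p of rho was 0.0583 for ADSL and PAICS (adjusted p = 0.622) and 0.103 to 0.714 for the other 8 enzymes (adjusted p 0.764 to 0.907). An r of 0.8 or more was seen in 5 of the 10 enzymes and in 10.5% of all genes, and an r above 0 in 7 of the 10 and in 50.6%. The median r was 0.79 over the enzymes and 0.021 over all genes.

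**Figure D4:**
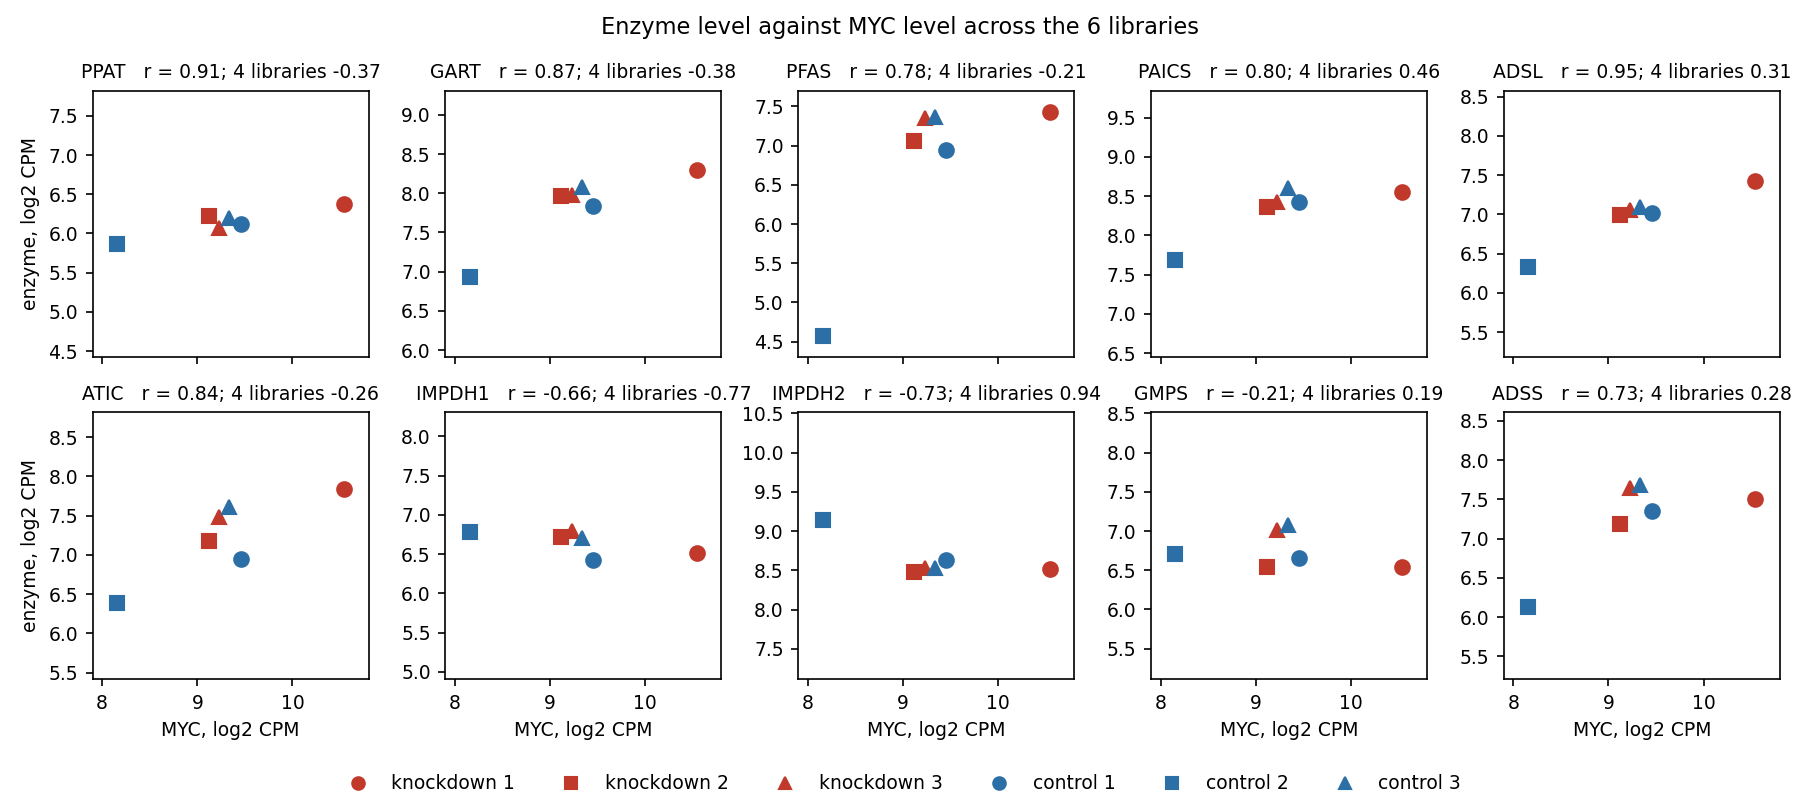
Log2 CPM of each enzyme (vertical, the same span of 3.4 units in every panel) against log2 CPM of MYC (horizontal) in the 6 libraries, red for knockdown and blue for control, with Pearson's r over 6 libraries and over the 4 that remain without knockdown 1 and the library labelled control 2. Those 2 libraries lie at the right and left ends, and r of GART goes from 0.87 over 6 libraries to −0.38 over 4.

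Left without the 2 libraries farthest from the median of MYC, which were knockdown 1 and the library labelled control 2, the positive values of the route to IMP were no longer shared. Over the remaining 4 libraries r was −0.37 for PPAT, −0.38 for GART, −0.21 for PFAS and −0.26 for ATIC, and 0.46 for PAICS, 0.31 for ADSL and 0.28 for ADSS. IMPDH1 had −0.77, GMPS 0.19 and IMPDH2 0.94, the last with an exact permutation p of 0.0417, which is the smallest that 4 libraries allow. After Benjamini-Hochberg adjustment the permutation p of IMPDH2 was 0.984, and 2.33% of all genes had an r at least as high over these 4 libraries. The median over the enzymes was −0.014. PPAT, GART, PFAS and ATIC thus kept a positive r with either of those 2 libraries left out alone, but not with both left out. The negative r of IMPDH2 rested on the library labelled control 2, being −0.030 without it alone and −0.90 without knockdown 1 alone. GMPS also changed sign without both, while PAICS, ADSL, ADSS and IMPDH1 kept theirs. The 4 libraries left span only 556 to 702 CPM of MYC, so they leave little range in which to read a relation. ADSL kept an r of 0.96 without the library labelled control 2 alone and 0.97 without knockdown 1 alone. In the same order PPAT had 0.79 and 0.84, and GART had 0.80 and 0.94. ADSS went to 0.14 and PFAS to 0.48 without the library labelled control 2. With each of the 6 libraries taken as its deviation from its group mean, r was 0.72 to 0.94 for the 6 enzymes of the route to IMP. The exact permutation p within groups was 0.0833 to 0.167 (adjusted p 0.492 to 0.588). These values again include knockdown 1 and the library labelled control 2. The 3 genes with an E-box in their window, PPAT, PAICS and ATIC, had r of 0.80 to 0.91 over the 6 libraries. Of the genes with none in theirs, GART had 0.87, PFAS 0.78, ADSS 0.73, GMPS −0.21 and IMPDH1 −0.66. PPAT and PAICS hold the same E-box, and the values over 4 libraries are those given above. Whether r differs with the E-box was not tested.

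Among themselves the 6 enzymes of the route to IMP had r of 0.82 to 0.98 over 15 pairs and 6 libraries (median 0.93), and 0.39 to 0.97 without the library labelled control 2 (median 0.71). PPAT and PAICS, with the shared promoter, had 0.84 and 0.44. IMPDH2 ran against the 6 at −0.83 to −0.98 over 6 libraries, where its value in that library was the highest, and had −0.52 to 0.025 without it. GMPS and ADSS, which lie on different branches, had 0.37 with that library and 0.82 without it. The libraries share preparation and scaling, and these values describe them only.

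The 8 genes whose levels were most like the mean standardized profile of the 10 enzymes, among 11089 other genes of at least 5 CPM, were ANAPC7, NADKD1, MYO19, ASXL2, BANF1, WDR5, LLPH and SART3, with r of 0.996 to 0.997 over 6 libraries and 0.983 to 0.995 without the library labelled control 2. MYC had 0.75 and 0.31 by the same measure, and PRMT5 had 0.47 and 0.043. The 8 genes were picked by r over the 6 libraries, so their r over fewer of the same libraries is not an independent check. Each of the 10 enzymes is itself part of the mean profile, which adds to its own r. Even so, not all 10 enzymes followed their mean profile. IMPDH2 had −0.90 and −0.44, IMPDH1 −0.17 and 0.47, and GMPS 0.38 and 0.59, whereas the other enzymes had 0.78 to 0.97 over 6 libraries.

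The surrounding pathways were read from 7 lists with 54 tested genes, of which 0 passed the edgeR test, as in 0% of all tested genes. Of the 54, 38 had a positive and 16 a negative log2 difference, beside 49.9% positive over all tested genes, and 0 had groups that did not overlap, beside 6.24%. Without the library labelled control 2, 29 were positive and 25 negative, beside 50.4% positive over all tested genes, and again 0 passed. Genes that supply one-carbon units and serine, needed for the formyl steps of GART and ATIC, were positive for 13 of 14, with a median log2 difference of 0.40, and for 10 of 14 with a median of 0.17 without that library. PSAT1, a serine synthesis aminotransferase, had 679, 621 and 262 CPM in knockdown 1 to 3, with 267, 60.7 and 285 CPM in the controls (log2 difference 1.35, SE 0.60, edgeR adjusted p = 0.926; 0.92 without the library labelled control 2). Knockdown 1 and 2 were high and the library labelled control 2 was low. MTHFD1L, a mitochondrial formate-producing enzyme, had 0.65 (SE 0.31), and 0.41 without it.

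De novo pyrimidine synthesis was positive for 4 of 5 genes, with a median of 0.44, CAD having 0.48 and UMPS 0.44. Purine salvage was positive for 5 of 8, with a median of 0.11, MTAP having 0.47 and PNP 0.30. The PRPP supply was positive for 3 of 4, with a median of 0.042, PRPSAP2 having 0.19 and PRPSAP1 −0.26. Deoxynucleotide synthesis was positive for 5 of 7, with a median of 0.13, TYMS having 0.36 and DCTD 0.26. Purine breakdown was positive for 4 of 6, with a median of 0.11, ITPA having 0.60 and SAMHD1 0.52. Without the library labelled control 2 the medians were 0.049 for pyrimidine synthesis, 0.065 for salvage, −0.028 for the PRPP supply, −0.12 for deoxynucleotide synthesis and 0.12 for breakdown. The log2 difference was then 0.15 for CAD, 0.061 for UMPS, 0.18 for MTAP, 0.082 for PNP, 0.087 for PRPSAP2 and −0.030 for PRPSAP1. It was 0.19 for ITPA, 0.075 for SAMHD1, 0.11 for DCTD and −0.024 for TYMS, which changed sign.

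Interconversion and nucleotide kinase genes were negative for 6 of 10, with a median of −0.38, which was −0.12 without the library labelled control 2. ADSSL1, the muscle-type relative of ADSS, was low, with 1.04, 4.80 and 2.65 CPM in knockdown 1 to 3 against 6.69, 32.1 and 2.07 CPM in the controls, and its log2 difference was −2.27 (SE 1.00), or −0.63 without that library. GMPR2, a GMP reductase, had −0.50 (SE 0.30), or −0.13 without it. In the library labelled control 2 the list medians, against the mean of the other 5, were −1.73 for pyrimidine synthesis, −1.24 for one-carbon supply, −1.13 for deoxynucleotide synthesis, −0.79 for the 10 purine enzymes and 0.74 for interconversion, beside −0.025 for all tested genes. Of the pairs that lack that library, pair 1 had list medians of 0.54 for one-carbon supply and 0.44 for pyrimidine synthesis, and pair 3 had −0.070 and −0.040.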

How the data were processed

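The authors deposited a table of estimated counts per gene for every library, with no scaling to depth. CASAVA 1.9, TopHat2 2, edgeR and hg19 are listed, without their roles, per the submitters' processing notes; the counter is not given in the sources used here, nor are the annotation and the strand setting, so overlapping and near-identical genes can share reads. Counts were rounded, filtered with filterByExpr (minimum count 10), TMM-scaled and tested with edgeR 4.0.16 in R 4.3.3 (glmQLFit, glmQLFTest, group only, two-sided, Benjamini-Hochberg over all tested genes, threshold 0.05). Log2 CPM used a prior count of 2. The scripts were tested on simulated data. Alternatives used DESeq2 1.42.0, limma 3.58.1 (voom), other scalings and filters, a replicate block, and libraries left out. Total counts limit the precision, and PCR copies cannot be told from molecules.

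The titles number both groups 1 to 3. Deviations from the group means correlated at 0.127, 0.394 and 0.566 in same-numbered libraries. No label states a pairing, and the deviations within a group sum to 0, so these values depend on each other and do not establish pairs. The main fit used the group alone, with the replicate block as an alternative, and differences within a number are a description. Knockdown 2 with control 1, which do not share a number, had 0.164, above the 0.127 of number 1. The pairing at number 1 is therefore uncertain. Exact permutation of 3 against 3 libraries cannot go below 0.1 and was not used.

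The members and lists were chosen with earlier results of these data known. Named genes were the members, MYC, PRMT5, the 2 smallest p-values of each pathway list, and the 8 genes most like the members' mean profile. CTPS was found only as CTPS1, and AMPD1, GMPR, NT5E, XDH and GDA did not pass the filter. 1 marker list is not reported here.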

Additional observations from a re-analysis of the deposited data

How the results depend on the processing

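No gene was called under any of the 15 alternatives of the comparison of knockdown with control; the counts at an unadjusted p under 0.05 were 242 in the edgeR fit, 461 with DESeq2, 117 with limma-voom, 477 with no filter, 436 with the replicate block and 33 to 1307 with 1 library left out. The replicate block changed no call. The median log2 difference of the enzymes was 0.27 with the replicate block, 0.091 to 0.40 with 1 library left out (0.091 without the library labelled control 2, 0.40 without control 3), 0.079 without both libraries numbered 2 and −0.016 without knockdown 1 and the library labelled control 2 together, a setting added after seeing the data. In that setting MYC turned to −0.22, PPAT to −0.0016, PAICS to −0.12, ADSL to −0.031 and ADSS to −0.089. With 1 library left out, MYC ranged from 0.085 (without knockdown 1) to 0.94, PAICS from −0.070 to 0.34, ADSS from −0.067 to 0.59, IMPDH1 from −0.073 (without control 1; −0.034 without knockdown 3) to 0.11 and GMPS from −0.29 to 0.037 (without control 3). PAICS was also negative, at −0.034, without both libraries numbered 2. GART, PFAS, ATIC and IMPDH2 kept their direction under all 15, but without knockdown 1 and the library labelled control 2 together GART was 0.014, PFAS 0.047, ATIC 0.027 and IMPDH2 −0.075. Leaving the library labelled control 2 out of the pathway lists was also added after seeing the data.

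The median r with MYC was 0.63 as Spearman's rho, −0.014 without the 2 libraries farthest from the median of MYC, and 0.49 to 0.89 with 1 library left out. Without the 2 farthest, r turned to −0.37 for PPAT, −0.38 for GART, −0.21 for PFAS, −0.26 for ATIC, 0.94 for IMPDH2 and 0.19 for GMPS. GMPS also turned to 0.096 under total counts, and ranged from −0.44 to 0.27 with 1 library left out (0.27 without knockdown 1). The other changes of scaling and of the prior count kept every sign. The cause of these changes was not tested. At a biological coefficient of variation of 0.373, log2 differences had a median SE of 0.33 over all tested genes. PFAS, ATIC and GART differed by more than that median. Their own SE was 0.59 for PFAS, as large as its difference of 0.59, 0.34 for ATIC and 0.31 for GART. All 10 intervals of the enzymes included 0.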
